A study of Mus musculus with 12 samples.

Results

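The comparison described here spans the switch from dark to light in C57BL/6J mice, whose prefrontal cortex was profiled on arrays. It sets 3 mice killed at Zeitgeber time 3 (ZT3), 3 hours after lights on, against 3 mice killed at ZT21, 9 hours after lights off and before the same switch. These are 6 of the 12 arrays of the study, and all 45037 probe sets that are not controls were considered. The mice were wild type, 10 weeks old when obtained, untreated, and kept under 12 hours of light and 12 hours of dark with free access to food and water. Brains were removed under red light in the dark phase, and each array held the RNA of 1 mouse. The sex of the mice is not given in the sources used here. The other 6 arrays, 3 at ZT9 and 3 at ZT15, entered the same fit and served to place the lights-on difference in the day. Between ZT21 and ZT3 the time of day, the light, and the usual passage of mice from their active night to their rest phase change together, and these cannot be told apart. In whole tissue, fewer cells of a type and less RNA per cell cannot be told apart either. Neuronal markers were bright on all 6 arrays, with a summed intensity of 60654 to 74257 over 12 genes. The summed intensity of blood and striatal markers overlapped between the groups. That of 8 olfactory bulb genes, 3 of them bright enough to be tested, was 222 to 239 at ZT3 and 251 to 264 at ZT21. Beside this, 18.0% of all single probe sets tested were lower at ZT3 without overlap. The brightest of the 8 genes was Calb2 (-0.36 in log2, ZT3 minus ZT21), which is also in the list of thalamus and hippocampus markers. The sum of that list overlapped between the groups. The source of the olfactory bulb difference was not tested.

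As background, most cells of the brain hold a circadian clock. The factors CLOCK and ARNTL bind E-boxes, short DNA sites, and switch on the Period and Cryptochrome genes, whose proteins return to block CLOCK and ARNTL, while DBP and related factors carry the rhythm to further genes. Neurons also turn on immediate early genes such as Fos, Arc and Egr1 within minutes of synaptic activity. Chaperones of the endoplasmic reticulum (ER), such as HSPA5, fold newly made secreted proteins and are turned on when unfolded proteins build up there, and cytosolic heat shock proteins do the same work in the cytoplasm.

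Among genes with a symbol, the clock genes Dbp and Per2 were the firmest changes across lights on. All clock genes that passed by their brightest probe set were lower at ZT3. Differences are given as ZT3 minus ZT21 in log2 intensity, so that 1 means a doubling of the array signal, with the standard error (SE) of the limma fit and a p-value adjusted over all tested probe sets, the brightest 54.5%. At an adjusted p under 0.20, the false discovery rate that the study used, 2876 probe sets differed (11.7%), of which 1091 (4.44%) were higher and 1785 (7.27%) were lower at ZT3. At an adjusted p under 0.05, 5 probe sets differed (0.0204%). They were both probe sets of Dbp, 1 of Per2 and 1 without a gene symbol, all lower at ZT3, and 1810014B01Rik, higher at ZT3. All 3 mice at ZT3 lay above or below all 3 at ZT21 in 28.7% of probe sets, 10.8% higher and 18.0% lower, and a lack of overlap in the genes below is read against these shares. The larger count was fragile. It was 5 without ZT3 replicate 2, 4 without ZT3 replicate 3, 23 without ZT21 replicate 1 and 5 without ZT21 replicate 2, and between 1613 and 5070 without any other single array. Each of the 2876 kept its direction without each array in turn, but 4 of them stayed under 0.20 every time, namely those of Dbp and Per2 and the one without a symbol. Every other call below is therefore a call of the full set of arrays that the omission of at least 1 array removed.

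Dbp, which encodes a transcription factor that binds D-boxes and relays the clock to its targets, had the smallest p-values among named genes. Its brighter probe set read 9.55, 9.30 and 9.23 in the mice at ZT3 and 11.03, 11.02 and 11.24 at ZT21. The groups did not overlap, and the level fell by 1.74 ± 0.17 from ZT21 to ZT3 (SE, n = 3; adjusted p = 0.00271), so that the signal at ZT21 was 3.33 times that at ZT3. The dimmer probe set fell by 1.39 ± 0.12 (adjusted p = 0.00142). Per2, a Period gene of the negative limb, read 6.69, 6.21 and 5.93 at ZT3 against 7.70, 8.41 and 7.80 at ZT21. It fell by 1.69 ± 0.20 (adjusted p = 0.0158). A further, dimmer Per2 probe set gave a difference of -0.40 and did not pass.

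Per1, the Period gene that also responds quickly to light and to neuronal activity, was tight at ZT3, with 6.88, 6.72 and 6.83, and more spread at ZT21, with 7.77, 8.50 and 8.11. Its difference was -1.31 ± 0.26 (adjusted p = 0.105). Ciart, a repressor of CLOCK and ARNTL, read 5.84, 5.76 and 5.77 at ZT3 and 6.75, 7.26 and 7.23 at ZT21, a difference of -1.29 ± 0.19 (adjusted p = 0.0678). Neither gene's groups overlapped. Bhlhe40, a repressor that competes at E-boxes, differed by -0.80 ± 0.16 (adjusted p = 0.105), and Cry1, a Cryptochrome of the negative limb, by -0.38 ± 0.14 (adjusted p = 0.19).

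Of the 18 clock genes tested, each by its brightest probe set, 6 were lower and 0 were higher, with a median of -0.20. Over all 11791 genes measured the same way, 8.90% were lower, 2.05% were higher and the median was -0.06. The positive limb gave small values. Arntl differed by 0.06 (8.05, 8.23 and 7.84 at ZT3 against 8.07, 7.77 and 8.09 at ZT21) and Clock by -0.19, and neither passed. Nr1d1, a repressor of Arntl, did not overlap between the groups (7.03, 7.17 and 7.17 against 7.35, 7.60 and 7.69) but differed by -0.43 ± 0.30 with an adjusted p of 0.454. The remaining genes were Per3, Cry2, Npas2, Nr1d2, Rora, Rorb, Hlf, Tef and Nfil3, and none passed by its brightest probe set. Other probe sets did for Npas2 (0.51) and Rora (0.57), which were higher, and for Tef (-0.43), which was lower.

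**Figure D1:**
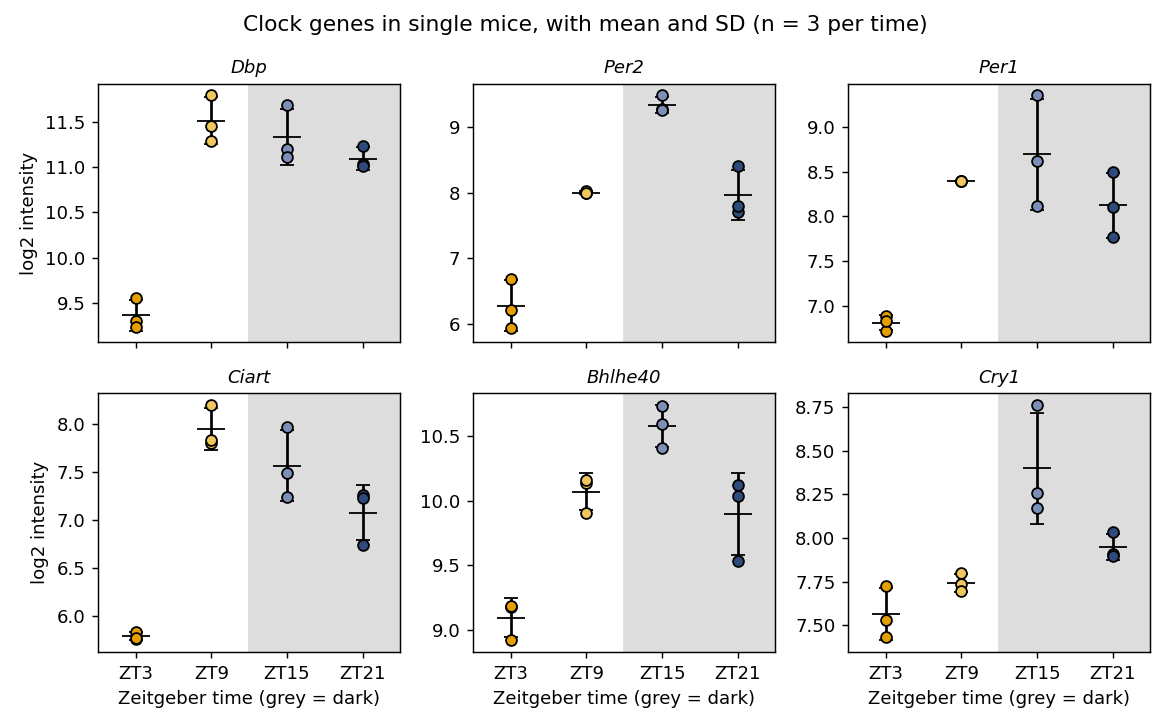
Each panel plots log2 intensity (y axis) against Zeitgeber time (x axis) for 1 clock gene, with a point per mouse, the mean as a horizontal mark and the SD as a bar (n = 3 per time), and grey for the dark phase. In all 6 panels the 3 mice at ZT3 lie below the 3 mice at ZT21, for Dbp at 9.23 to 9.55 against 11.02 to 11.24.

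The promoters of the clock genes were read for the E-box sequence. RefSeq promoters (build GRCm38.p6, 250 bases before to 50 after the start of the gene) were searched for CACGTG, which reads the same on both strands. The stretches printed are those of the called clock genes that held it, 5′ to 3′ in the direction of the gene, with each CACGTG in capitals. Ciart held 3 copies within 90 bases (chr3:95882259-95882348, minus strand), and Cry1 (chr10:85185090-85185139, minus strand) and Per1 (chr11:69098759-69098808, plus strand) held 1 copy each.
Ciart: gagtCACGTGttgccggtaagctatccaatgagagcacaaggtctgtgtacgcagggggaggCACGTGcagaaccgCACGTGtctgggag
Cry1: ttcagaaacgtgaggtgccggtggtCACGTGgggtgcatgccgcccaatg
Per1: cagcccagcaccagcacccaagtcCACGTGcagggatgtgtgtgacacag

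Among 16 tested clock genes with a promoter window, 4 held CACGTG, namely these 3 and Tef. Of the other called clock genes, Dbp held none in its window, and Per2 and Bhlhe40 had no window. The motif stood in 11.7% of the promoters of 9528 tested genes, in 13.1% of those of genes called higher and in 13.9% of those of genes called lower at ZT3. The presence of the letters is a description of this window only.

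Activity-regulated genes were the list with the lowest median. Of 36 genes tested, 10 were lower and 0 were higher at ZT3, with a median of -0.59, beside 8.90% lower, 2.05% higher and a median of -0.06 for all genes. The 10 lower genes were Junb, Egr1, Nr4a1, Nr4a2, Nr4a3, Ptgs2, Plk2, Ier5, Dusp4 and, shared with the clock list, Per1. Over all 58 probe sets of the list 16 were lower and 3 higher, beside 7.27% and 4.44% of all probe sets. The 3 higher were 2 of Homer1 and 1 of Nptx2. Some members were tight within each time point and others varied widely among mice.

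Nr4a2, an orphan nuclear receptor induced by activity, was tight. It read 9.09, 8.79 and 8.88 at ZT3 and 10.14, 10.40 and 10.47 at ZT21, a difference of -1.42 ± 0.30 (adjusted p = 0.12). All 4 of its probe sets were called lower, from -1.42 to -0.45. Ier5, an immediate early response gene, read 10.13, 10.18 and 10.04 against 10.72, 10.95 and 10.85 and differed by -0.73 ± 0.13 (adjusted p = 0.102). All 3 Ier5 probe sets were lower, and none overlapped between the groups. Nr4a3, of the same receptor family, differed by -1.10 ± 0.26, and Dusp4, a phosphatase that switches off MAP kinases, by -0.86 ± 0.25 with a wider spread at ZT21 (6.66, 7.65 and 6.49). Ptgs2, the inducible cyclooxygenase, differed by -0.83 ± 0.31 by its brightest probe set, while its other probe set gave 0.18 and did not pass.

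Junb, Fos and Arc varied among mice. Junb, a partner of FOS, had the largest difference of the list at -2.03 ± 0.76 (adjusted p = 0.195), but its mice spread from 5.48 through 7.33 to 8.47 at ZT3, against 8.53, 9.31 and 9.51 at ZT21. The highest mouse at ZT3 lay just under the lowest at ZT21. Fos read 7.54, 8.62 and 10.59 against 9.75, 10.98 and 11.31, and Arc, a synaptic protein made at active synapses, read 7.26, 8.66 and 10.41 against 9.52, 10.56 and 11.00. Both overlapped between the groups. Their differences of -1.76 ± 0.82 and -1.58 ± 0.80 did not pass (adjusted p = 0.268 and 0.30). Egr1, an activity-induced transcription factor, read 11.03, 11.20 and 11.72 against 11.77, 12.21 and 12.35, without overlap, and differed by -0.79 ± 0.22 (adjusted p = 0.153). Nr4a1 differed by -1.35 ± 0.51 (adjusted p = 0.198) and overlapped. At ZT3 the mice spread over more than 1 log2 unit in 9 of the 36 genes, and at ZT21 in 6. The first mouse at ZT3 was the lowest of the 3 in 19 of the 36 genes.

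Some activity-regulated genes gave values near 0. Bdnf, a neurotrophin, differed by -0.20, Vgf by -0.13, Egr3 by 0.07, Jun by 0.15 and Homer1 by -0.01 by its brightest probe set, and none passed. Nptx2, a pentraxin secreted at synapses, differed by 0.29 by its brightest probe set, which did not pass, and by 0.40 ± 0.14 by the other (adjusted p = 0.18), which was higher at ZT3.

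**Figure D2:**
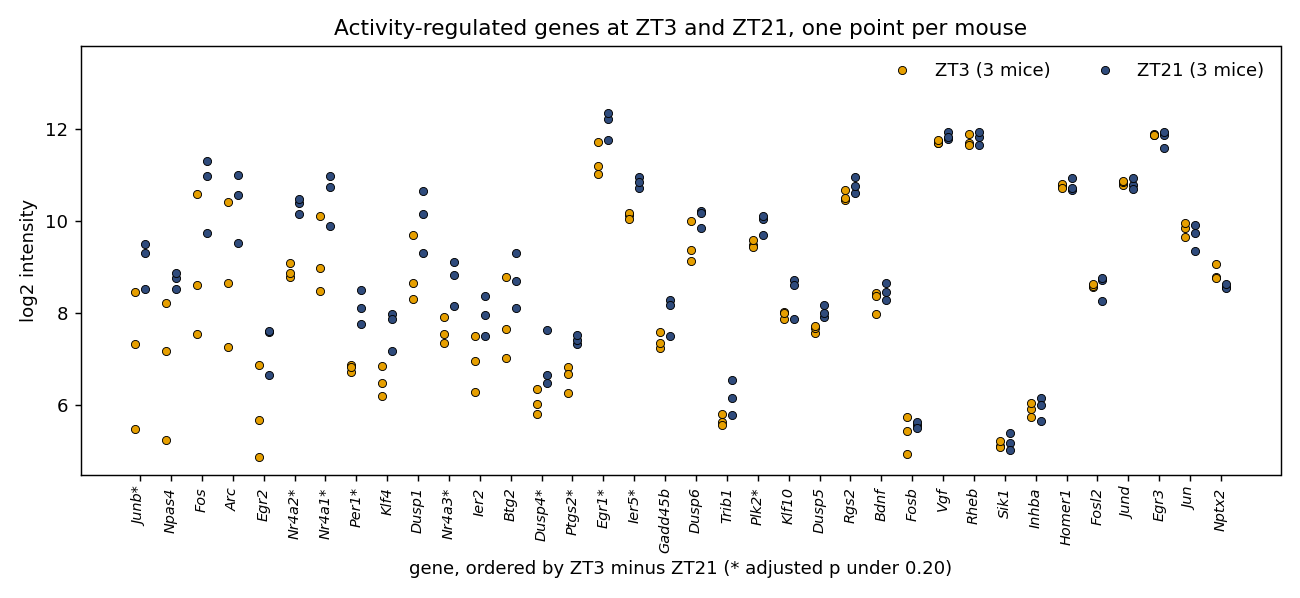
The y axis is log2 intensity and the x axis holds the 36 activity-regulated genes by their brightest probe set, ordered from the lowest to the highest ZT3 minus ZT21, with a point for each of 3 mice at ZT3 and 3 at ZT21 and a star for an adjusted p under 0.20. Junb, Fos and Arc spread over more than 2 log2 units at ZT3, while the points of Nr4a2 and Ier5 stay together.

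Most chaperone probe sets that passed were higher at ZT3, but they were a minority of the probe sets of these genes. Of 29 genes of the ER chaperones and the unfolded protein response, 1 was higher and 1 lower by the brightest probe set, with a median of -0.02. Over all 64 probe sets of the list, 11 were higher and 2 lower, with a median of 0.11, beside 4.44% higher, 7.27% lower and a median of -0.02 for all probe sets tested. The same held for 25 cytosolic heat shock genes, with 1 higher and 1 lower by gene and 6 higher and 3 lower of 57 probe sets. The sign of both list medians by gene turned with the scaling. After quantile normalization they were 0.05 for the ER list and 0.02 for the heat shock list, against -0.02 and -0.03, and 7 ER genes and 3 heat shock genes were then called higher by the brightest probe set, beside 6.71% of all genes.

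Hspa5, the main ER chaperone, read 11.31, 11.26 and 11.06 at ZT3 and 10.70, 10.63 and 10.80 at ZT21 and rose by 0.50 ± 0.09 (adjusted p = 0.102). Its brightest probe set read 11.90, 11.87 and 11.85 against 11.55, 11.47 and 11.75, without overlap, and its difference of 0.28 ± 0.11 just missed the threshold (adjusted p = 0.221). Pdia6, a disulfide isomerase of the ER with 1 probe set tested, read 10.23, 9.83 and 9.68 against 9.35, 9.56 and 9.62 and rose by 0.41 ± 0.14 (adjusted p = 0.183). Its groups did not overlap. Except for Atf4, the genes that follow in this paragraph were named after their values were seen. Hsp90b1, the HSP90 of the ER, rose by 0.73 ± 0.22 in 1 probe set, while its brightest gave 0.23. Sel1l, which serves the export of misfolded proteins, was higher in 3 of 5 probe sets, by 0.61 to 0.68. Dnajc3, a co-chaperone of HSPA5, rose by 1.01 ± 0.23 in 1 of 5 probe sets, and the other 4 lay between -0.21 and 0.12. Atf6, Derl1, Pdia3 and Serp1 were each higher in 1 probe set. Those lower were Atf4, a transcription factor of the stress response (-0.48), and Selenos (-0.68), each in 1 probe set. Xbp1 and Herpud1, further genes of this response, gave no call.

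In the cytosol, Hspa4, an exchange factor of HSP70, read 8.74, 9.25 and 9.21 at ZT3 and 8.17, 7.96 and 8.26 at ZT21 and rose by 0.94 ± 0.16 (adjusted p = 0.102). Its brightest probe set differed by -0.10 and did not pass. Hsph1, of the same family, rose by 0.66 ± 0.13, Hspa4l by 0.82 ± 0.19, Dnaja1 by 0.39 ± 0.11 and Hsp90aa1 by 0.36 ± 0.14. In each of these genes too the called probe set was not the brightest, and the brightest did not pass. Hspa4 and these genes were named after their values were seen. Chordc1, an HSP90 co-chaperone, rose by 0.31 ± 0.10 in its brightest probe set. Against them stood Dnajb5, a DnaJ co-chaperone, lower in all 3 of its probe sets by -0.91, -0.61 and -0.55. Its brightest read 10.23, 10.17 and 10.16 against 10.84, 11.30 and 11.15, without overlap.

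**Figure D3:**
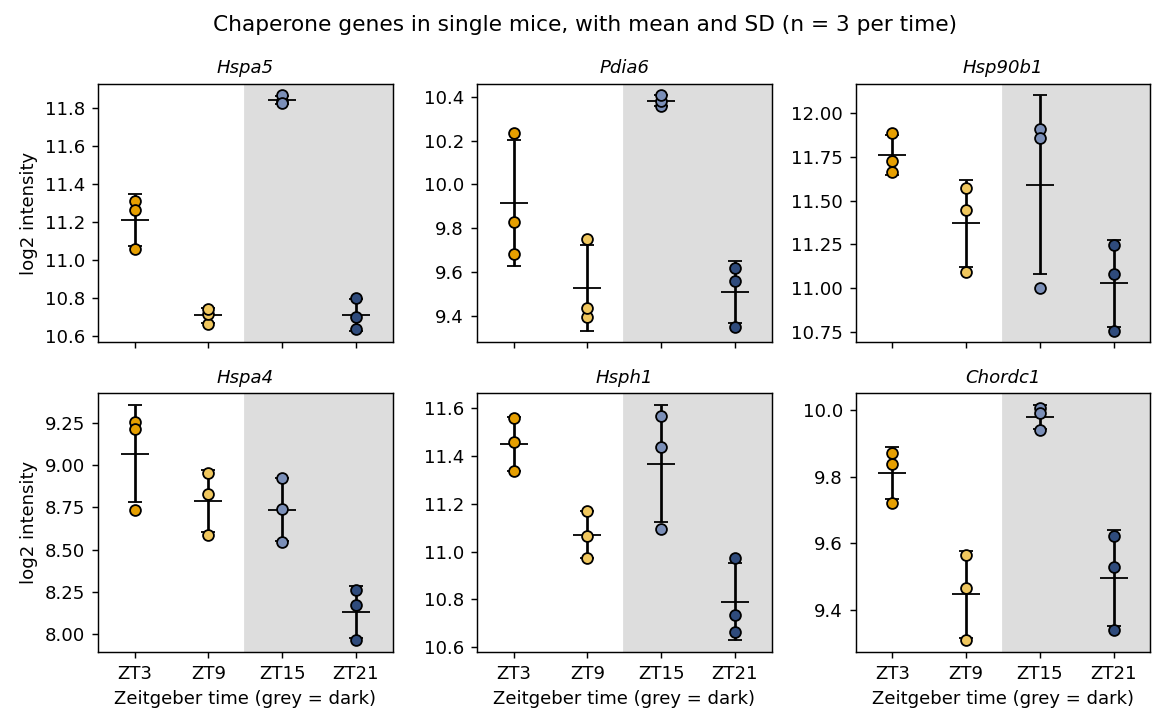
Each panel plots log2 intensity (y axis) against Zeitgeber time (x axis) for 1 called probe set of a chaperone gene, with a point per mouse, the mean as a horizontal mark and the SD as a bar (n = 3 per time), and grey for the dark phase. In each panel the 3 mice at ZT3 lie above the 3 mice at ZT21, and for Hspa5, Pdia6 and Chordc1 the mice at ZT15 lie above those at ZT9 as well.

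The ER stress response element, CCAAT and CCACG with 9 bases between them, was searched on both strands of the same promoter windows. It stood in 13 of 9528 tested genes, of which 4 were called higher in some probe set and 0 lower, beside 6.90% and 11.3% of all genes with a promoter. These were Hspa5, Pdia6, Hsp90b1 and Dnajc3. The other 9 were not called in any probe set and ran from -0.33 (Syvn1) to 0.27 (Alg12) by the brightest, with Creld2 at -0.13, Calr at -0.04 and Canx at 0.24. The stretches that hold it are given for Hspa5 (chr2:34772005-34772054, plus strand) and Pdia6 (chr12:17266471-17266520, plus strand) in build GRCm38.p6 from RefSeq, with CCAAT and CCACG in capitals.
Hspa5: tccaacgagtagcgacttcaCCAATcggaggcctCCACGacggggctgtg
Pdia6: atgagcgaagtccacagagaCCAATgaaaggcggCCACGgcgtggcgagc
The ER list was known when the element was chosen, and no more than its presence is described.

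The next question was whether the chaperones differed across lights off in the same manner. ZT15 and ZT9 lie 3 hours after and 3 hours before lights off, as ZT3 and ZT21 do for lights on, and the pairs share no array. Across lights off 139 probe sets differed (0.566%). The sum of both differences, after minus before at lights on and at lights off, equals ZT3 and ZT15 together minus ZT9 and ZT21 together, and it passed in 51 probe sets (0.208%). Hspa5 was higher after both switches, more so across lights off. Its difference there was 1.14 (adjusted p = 0.000464), and the sum was 1.64 ± 0.13 (adjusted p = 0.00038). The sum also passed for Pdia6 (1.26 ± 0.20), Chordc1 (0.85 ± 0.14) and Dnajb11 (0.81 ± 0.14), each with an adjusted p of 0.0966. In all 3 the larger part came from lights off (0.85, 0.53 and 0.56), and for Dnajb11 the difference across lights on, 0.25, did not pass (adjusted p = 0.206). Dnajc3 (1.87), Hsph1 (0.96) and Nptx2 (1.45), chosen after their values were seen, passed too. Hspa5 passed without each of the 12 arrays in turn, and Pdia6, Chordc1 and Dnajb11 in 7, 5 and 5 of the 12 omissions.

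Homer1, which encodes a scaffold of the synapse with a short form made on activity, had the largest sum of the genes named here. In the probe set concerned it read 10.62, 10.46 and 10.61 at ZT3 and 10.35, 10.52 and 9.86 at ZT21, a difference of 0.32 ± 0.17 that did not pass. Across lights off it rose by 3.37 (adjusted p = 4.39e-06), so the sum of 3.68 came almost wholly from lights off. Another probe set rose by 1.00 ± 0.36 across lights on (6.19, 6.49 and 6.68 against 5.61, 5.77 and 4.97). Which transcript forms these probe sets read was not tested. Of the clock genes, Dbp and Ciart passed with a negative sum (-1.92 and -1.67). Both fell across lights on and differed by -0.18 and -0.38 across lights off, which did not pass. Per2 rose by 1.34 across lights off (adjusted p = 0.0312) after falling by 1.69 across lights on, and its sum of -0.35 did not pass.

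Most called probe sets had their daily extremes at these time points. Of the 1091 called higher, 73.3% had their highest mean at ZT3 and 94.0% their lowest at ZT21, and of the 1785 called lower, 91.4% had their lowest at ZT3 and 76.7% their highest at ZT21. Since ZT3 and ZT21 chose the calls, this is a description. The median called difference was 0.52 for those higher and -0.48 for those lower, and 31 and 54 exceeded 1 log2.

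Most of the largest higher calls lay in probe sets of genes for which a brighter probe set was not called. The 15 genes with the largest higher calls were Reps2, Anp32a, Ryr2, Grin2a, Nebl, Kdm7a, Ddx46, Hacd3, Tnks, Tlk1, Kcnd3, Avl9, Abca1, Ankrd45 and Uhmk1, with differences of 1.06 to 1.82. For 12 of the 15 a brighter probe set of the same gene was tested, and in none of the 12 was it called, with differences of -0.30 to 0.31. Among all 1091 higher calls, 762 likewise lay in a probe set that was not the brightest of its gene. Reps2, an endocytosis adaptor, read 5.22, 6.10 and 6.29 at ZT3 against 3.98, 3.76 and 4.40 at ZT21 in the called probe set. Its brighter probe set read 10.77, 10.79 and 10.80 against 10.68, 10.70 and 10.91. Ryr2, a calcium release channel, gave 1.41 in the called probe set and -0.30 in the brighter one. Anp32a was called by its brightest probe set (1.71 ± 0.56; 10.64, 10.88 and 10.88 against 9.21, 9.18 and 8.86), while its others gave -0.40 and -0.17. Grin2a, an NMDA receptor subunit, and Ankrd45 had 1 probe set each.

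Probe sets of a gene also parted elsewhere in the table. Among 5412 genes with several probe sets, the brightest was higher in 149 (2.75%) and lower in 494 (9.13%). Of their 9198 other probe sets 762 (8.28%) were higher and 520 (5.65%) lower. Beside these stand 4.44% higher and 7.27% lower of all probe sets tested. In 48 of the 2207 genes called in some probe set, probe sets were called in opposite directions. Chosen after its values were seen, Camk2a, a kinase of excitatory synapses, was 1 of them, with 0.45 in its brightest probe set and -0.59 in a dimmer one. Myt1l, a neuronal transcription factor, was another, with 0.41 and -1.49. Son, a splicing cofactor, gave 0.83 ± 0.25 in a called probe set and -0.73 ± 0.30 in its brightest, which did not pass. The probe sets of a gene can read different transcript ends or forms, and their part in these differences was not tested.

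**Figure D4:**
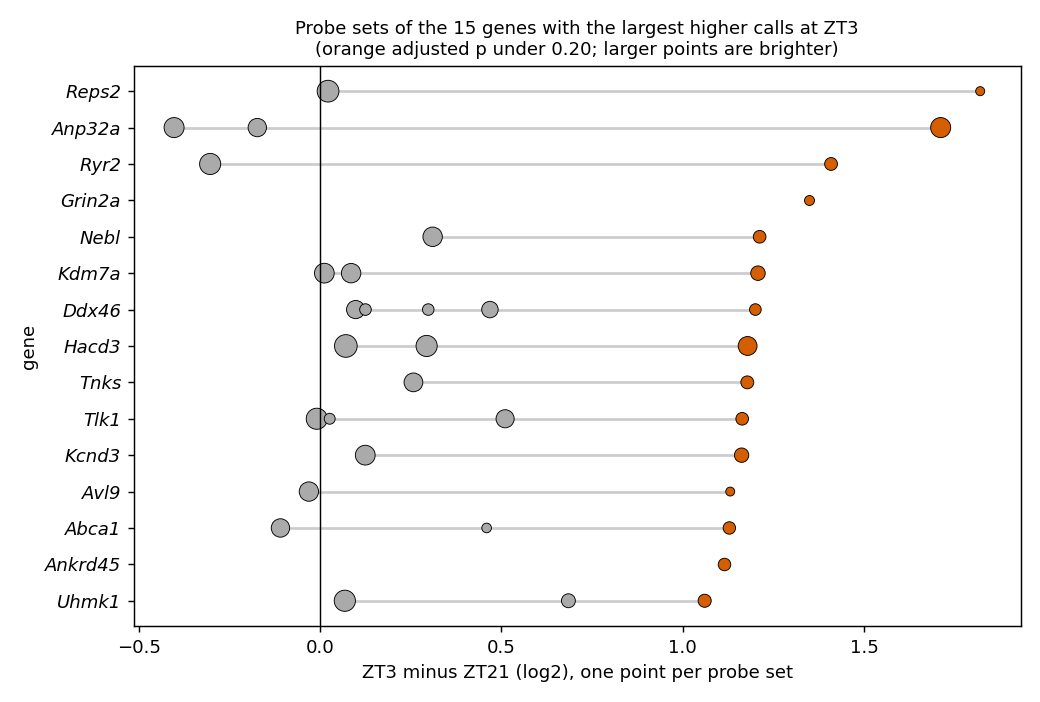
The x axis is ZT3 minus ZT21 in log2 and each row holds the probe sets of 1 of the 15 genes with the largest higher calls, with larger points for brighter probe sets, orange for an adjusted p under 0.20 and grey for the others. In 12 rows the orange point lies at 1.06 or more and a larger grey point lies between -0.30 and 0.31.

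The 15 largest lower calls held many clock and activity genes. They were Alb, Junb, Dbp, Per2, Plcxd1, Ier5l, Myt1l, Nr4a2, Nr4a1, Cx3cl1, Per1, Ciart, Zfp467, Gjb1 and Rbm24, from -2.27 to -1.17. A brighter probe set existed for 6, and in 4 of these it was not called. Alb, which encodes serum albumin, read 5.98, 6.16 and 6.76 at ZT3 and 7.44, 9.51 and 8.75 at ZT21, a difference of -2.27 ± 0.43 (adjusted p = 0.102) without overlap. Ttr, the leading marker of the choroid plexus, read 10.94, 9.85 and 9.22 against 10.53, 10.79 and 12.40 and did not pass, and its part in the Alb difference was not tested. Ier5l, a relative of Ier5, differed by -1.53 ± 0.35, and Plcxd1 by -1.69 ± 0.33 in the brighter and 0.05 in the other of its probe sets. Cx3cl1, the neuronal chemokine fractalkine, was lower by 1 dim probe set (-1.34), while its brightest gave -0.19. Chosen after their values were seen, Ide, the insulin-degrading enzyme, was lower in 4 of 5 probe sets (-1.12 to -0.73), Cd99 in 3 of 3 (-0.91 to -0.82) and Fgfbp3 in its only one (-1.08 ± 0.16, adjusted p = 0.0686).

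The lists of metabolism and protein turnover had shares of lower calls mostly near the 8.90% of all genes. Of 23 genes of cholesterol synthesis, 4 were lower and 0 higher (median -0.09), namely Fdps (-0.65), Mvd (-0.64), Tm7sf2 (-0.46) and Mvk (-0.41), of which Fdps, Mvd and Mvk act in the mevalonate pathway. Fdps read 8.92, 8.81 and 8.66 against 9.44, 9.69 and 9.23. Over all 42 probe sets of this list 8 were lower and 3 higher, beside 7.27% and 4.44% of all probe sets. Those higher, named after their values were seen, were Hsd17b7 (0.65), Insig2 (0.69) and Stard4 (0.75). Each was a probe set that was not the brightest of its gene. Of 49 genes of the respiratory chain 6 were lower and 0 higher (median -0.16), among them Cyc1 (-0.45), Cox5a (-0.47) and Uqcrc2 (-0.48). Of 34 cytosolic ribosomal protein genes, 3 were lower and 0 higher (median -0.21), and of 31 proteasome genes 3 and 0 (median -0.12). The ribosomal median of -0.21 became -0.12 after quantile normalization. Of 25 genes of glucose uptake and glycolysis 3 were lower and 0 higher, namely Slc2a1, the glucose transporter of the blood-brain barrier (-0.46), Tpi1 (-0.55) and Ldhb (-0.41), with a list median of -0.05 beside -0.06 for all genes.

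Among regulators, the list of Kruppel-like factors and thyroid and retinoid receptors had 3 higher and 0 lower of 20 genes, with a median of -0.12, beside 2.05% higher, 8.90% lower and a median of -0.06 for all genes. Thrb, the beta thyroid hormone receptor, read 6.82, 7.06 and 6.69 at ZT3 and 5.77, 6.04 and 6.18 at ZT21 and rose by 0.85 ± 0.16 (adjusted p = 0.102). Klf11 rose by 0.76 ± 0.20 and Klf5 by 0.26 ± 0.08. Thra, the alpha receptor, was lower in 2 of 3 probe sets (-0.76 and -0.31), with -0.14 in the brightest. Mapk8, the stress kinase JNK1, was the 1 gene higher by its brightest probe set among 23 of the MAP kinase cascade. It rose by 0.75 ± 0.22 in its brightest probe set and by 0.97 and 0.57 in others, while 3 genes, Dusp4, Nras and Spry2, were lower. Over all 61 probe sets of this list the balance was the other way, with 9 higher and 3 lower, beside 4.44% and 7.27% of all probe sets. Named after their values were seen, Map2k4 (0.71), Mapk9 (0.57 and 0.67) and Spred1 (0.49, 0.52 and 0.58) made up the higher calls beside Mapk8. Of 14 cortical neuropeptides Adcyap1, encoding PACAP, rose by 0.43 ± 0.14, and Crh, encoding corticotropin-releasing hormone, and Chga, a granin of secretory granules, differed by -0.61 ± 0.18 and -0.53 ± 0.14. Crh read 8.89, 8.67 and 8.62 against 9.33, 9.36 and 9.33.

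The remaining lists held 0 to 3 calls in a direction by the brightest probe set, and several had more higher calls over all their probe sets. Their counts stand beside 2.05% higher and 8.90% lower of all genes by the brightest probe set. Over all probe sets tested 4.44% were higher and 7.27% lower. Of 24 potassium channel genes 3 were lower (Kcnc1, Kcnj4 and Kcnq3) and 1 higher (Kcnh7), and of their 55 probe sets 5 were lower and 4 higher. Of 27 glutamate receptor and scaffold genes 1 was higher (Grin2a) and 1 lower (Grik5), and of 54 probe sets 5 were higher and 1 lower. Of 15 GABA genes Gabra5 was lower by its brightest probe set (-0.35). Of their 32 probe sets 3 were higher and 1 lower, and those higher, named after their values were seen, belonged to Gabra2 (0.52), Gabrb2 (0.96) and Gad2 (0.51). Of 26 splicing and cold-inducible factors Srsf5 was higher, by 0.40 ± 0.14, while Cirbp, which is induced by cold, differed by -0.13 and did not pass. Of the 99 probe sets of that list 10 were higher and 1 lower, beside 4.44% and 7.27% of all probe sets, and those higher included, again named after their values were seen, 3 of Son, 2 of Pnisr and 1 each of Srsf1, Srsf3, Srsf11 and Hnrnpu. Of 9 adenosine genes Slc29a4 was higher and Nt5c lower. Of 19 aminoacyl-tRNA synthetases Hars was lower, with 2 higher and 3 lower of 36 probe sets. Among 18 glucocorticoid-responsive genes Per1 was the only call by the brightest probe set, with 0 higher and 3 lower of 39 probe sets. Fkbp5 and Sgk1, which glucocorticoids induce, differed by 0.22 and -0.26 and did not pass.

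**Figure D5:**
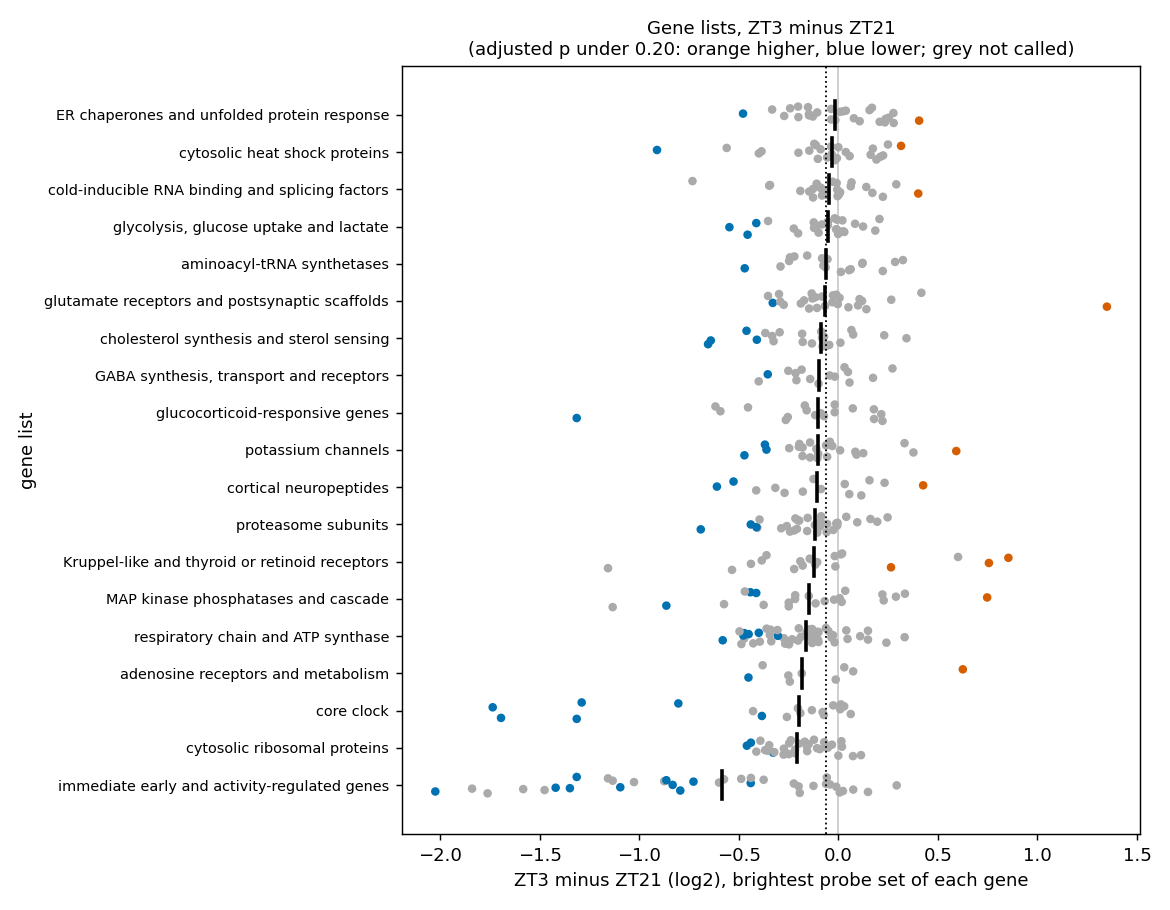
The x axis is ZT3 minus ZT21 in log2 and each row is a gene list, with a point per gene by its brightest probe set, orange for higher and blue for lower at an adjusted p under 0.20, grey for the others, a black bar at the list's median and a dotted line at the median of all genes, -0.06. The activity-regulated list stands lowest with a median of -0.59, while the median of the clock list is -0.20 with Dbp, Per2, Per1, Ciart and Bhlhe40 far to the left.

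The summed intensity of microglial and endothelial markers did not overlap between the groups. Beside this stand the 18.0% of all single probe sets that were lower at ZT3 without overlap. Microglial markers had a summed intensity of 5714 to 6424 at ZT3 and 7081 to 7511 at ZT21. By the brightest probe set Tyrobp (-0.76) and C1qb (-0.40) were lower and 0 higher of 11, with a median of -0.24. Over all genes 8.90% were lower, 2.05% were higher and the median was -0.06, and the calls by gene below stand beside the same shares. P2ry12, a marker of resting microglia, gave 0.44 and did not pass. The sum over 11 genes of endothelium was 2308 to 2424 against 2589 to 3047, and of the 9 tested 0 were called. Their part in the other differences was not tested. The sums of myelin, astrocyte, neuronal, interneuron and layer markers overlapped between the groups. Neuronal markers were called in both directions, with Camk2a (0.45) and Stmn2 (0.30) higher and Neurod6 (-0.43) and Neurod2 (-0.28) lower. The other calls by the brightest probe set were Col1a1 of the meninges (0.24), Gpr17 (-0.86), a receptor of oligodendrocyte precursors, Ermn of myelin (0.41), Dlx1 of interneurons (-0.48), Cux2 of the upper layers (-0.39), and Ccn2 of the deep layers (-0.66). Of 12 astrocyte genes 0 were called by the brightest probe set, with a median of -0.03. Over all 33 probe sets of that list 4 were higher and 0 lower, beside 4.44% and 7.27% of all probe sets. Those higher, named after their values were seen, were Aqp4 (0.79), Slc1a2 (0.75), Slc1a3 (0.65) and Fgfr3 (0.29). Of 27 myelin probe sets 2 were higher, Ermn and Ugt8a (0.94), and 2 lower, both of Mbp (-0.56 and -0.29).

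The arrays set the precision. Mean intensity was 344 to 356 at ZT3 and 347 to 395 at ZT21, where replicate 3 was the brightest and stood apart from the other mice at ZT21 on the second principal component (-8.27 against 28.4 and 28.7). Without it the call count was 2603, with 1663 higher and 940 lower, so that the balance of directions turned. The share of calls that were higher was 37.9%, and it was 49.0% after quantile normalization and 49.4% after centring each array on its median. The median difference of all probe sets was -0.02, 0.004 and 0.02 in the same order. With 3 mice against 3, an exact permutation test of a single gene cannot give a p below 0.10, so that the adjusted p-values rest on the spread that limma pooled over 4 time points. By the study's methods the replicates were separate mice.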

How the data were processed

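RNA of the prefrontal cortex of single mice was hybridised to Affymetrix Mouse430_v2 arrays. The deposited values are intensities: the authors obtained 1 GCRMA value per probe set on a linear scale, and used MAS5 for detection calls, which are not used here. The table holds 45101 probe sets, 64 of them controls, which were dropped, for 12 arrays, and no value lay below the floor of 1. Scan dates are not given in the sources used here.

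Values were taken as log2. The probe sets with the highest mean, as many as the authors kept (54.5%), entered a model of 4 group means in limma 3.58.1 under R 4.3.3, with eBayes moderation and two-sided tests, and p-values were adjusted after Benjamini and Hochberg. The differences were ZT3 minus ZT21, ZT15 minus ZT9 and their sum. The main fit was first tested on simulated arrays with changes planted at ZT3, and the other steps were not tested in this way. Figures were made with Python 3.11.15 and matplotlib 3.10.9. Gene symbols came from the platform annotation, with 34945 probe sets of 1 symbol, 932 of several and 9160 of none, and 34741 of the first matched RefSeq genes.

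Genes were named if among the 15 largest calls per direction, among up to 4 per list with the smallest p, or clock genes and a few further genes. Any other gene is marked as chosen later. The comparison, the lists and the rules were chosen with earlier results of these data known. In a list, a gene stands for its brightest probe set unless all are counted.

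Results were recomputed after quantile normalization or median centring, on every probe set or on the 15000 brightest, with a robust prior that follows intensity, with weights per array, with a block for replicate number, on the 6 arrays of ZT3 and ZT21 alone, with an unmoderated statistic, with each array left out, over all probe sets of a list, and, added after the data were seen, on probe sets whose names end in _at alone.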

Additional observations from a re-analysis of the deposited data

Results flagged for a closer look

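The light minus dark difference at lights on (ZT3 minus ZT21) was set against the light minus dark difference at lights off (ZT9 minus ZT15). The results below stood out because these differed from each other by limma at an adjusted p under 0.20. Of the 51 probe sets that passed, only those of genes named by the rules above or under 0.05 across lights on are listed. Others passed as well, for example Wdr6, chosen after its values were seen (-1.13, adjusted p = 0.092). The value given is the first minus the second, which is the sum described above.

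Among chaperones it was 1.64 and 1.34 for the brightest probe sets of Hspa5 (adjusted p = 0.00038 and 0.019), 1.26 for Pdia6, 0.85 for Chordc1 and 0.81 for Dnajb11. Both Hspa5 values passed without each of the 12 arrays in turn.

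Homer1 gave 3.68, 2.93 and 1.12 in 3 probe sets. The first passed without each of the 12 arrays in turn, with values of 3.49 to 3.82, while the others passed in 5 and 3 of the 12 omissions.

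Dbp gave -1.68 and -1.92, Ciart -1.67 and a probe set without a gene symbol -1.15. Dbp and that probe set passed in all 12 omissions and Ciart in 6. The value was 1.04 for 1810014B01Rik, of which 1.01 arose across lights on, and it passed in 4 of 12 omissions. Alb gave -3.12 and passed in 4 of 12.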

How the results depend on the processing

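The number of probe sets at an adjusted p under 0.20, 2876 with all arrays, was 5055 after quantile normalization, 254 without the filter, 11490 with array weights, 6192 with the 6 arrays of ZT3 and ZT21 alone, 50 with an unmoderated statistic, 1078 for names ending in _at alone (an alternative chosen after seeing the data) and 4 to 5070 with 1 array left out. The number under 0.05, 5 with all arrays, was 8 after centring, 6486 with array weights, 1051 with 6 arrays, 3 with an unmoderated statistic and 3 to 55 with 1 array left out. The sum passed in 51 probe sets, and in 412 after quantile normalization, 188 after centring, 118 of the 15000 brightest, 5791 with array weights, 12 with an unmoderated statistic and 6 to 1043 with 1 array left out. With the replicate number as a block these 3 counts were 95, 3 and 11. Between ZT3 and ZT21, deviations of mice of the same number correlated at -0.10, -0.14 and -0.10, none of them positive. The other time points were not compared in this way, so a batch shared by number across all 4 times was not tested.

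Among the single genes followed through these settings, the sign turned only for values that were not called. For the other called probe sets the sign was followed only with 1 array left out. After quantile normalization, centring and array weights, Hlf was 0.0180, 0.0197 and 0.130 and Homer1 by its brightest probe set 0.0281, 0.0353 and 0.0770, and Nr1d2 was 0.00101 with array weights. With 1 array left out, Arntl was -0.0414 to 0.16, Hlf -0.12 to 0.10, Homer1 -0.0640 to 0.0702, Nfil3 -0.0273 to 0.0618, Nr1d2 -0.23 to 0.0295, Rora -0.11 to 0.12, Rorb -0.33 to 0.0312 and Tef -0.0520 to 0.13. The cause of these changes was not tested. The number of arrays, 3 per time, limits the precision.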
